A study of Mus musculus with 6 samples.

Results

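The RNA of 40 genes that encode actins, myosins, their partners at the actin filament and the serum response factor SRF was examined in mouse embryonic fibroblasts (MEFs). The genes were listed by name as contractile genes and cytoskeletal genes under SRF control, all 40 were found among the 25043 genes of the RNA-Seq table, and each is represented by its RefSeq transcript with the highest mean. By role, 14 are smooth muscle contractile genes, 18 belong to the general cytoskeleton, 2 are striated muscle actins, 2 are SRF and its co-activator Myocd, and 4 encode LIM or ankyrin repeat proteins. The study asked what the loss of ANP32E, a chaperone that removes the histone variant H2A.Z from chromatin, does to MEFs. Total RNA was sequenced from 3 WT and 3 Anp32e-/- cultures of primary MEFs, all below passage 8. The cells came from WT or Anp32e-/- embryos, so that the gene was missing throughout development, and the number of embryos per genotype is not given in the sources used here.

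Each value below is 1 mean over all 6 libraries. It pools both genotypes, has no replicate SD and says nothing about either group alone, so no comparison of Anp32e-/- with WT MEFs was made. The mean of Anp32e itself, 2190 normalized counts, likewise cannot check the genotype labels. The authors state that the mutation was checked by RNA-Seq, on reads that were not used here. Levels of different genes are compared as normalized counts per kb of exon, and no test was run between genes.

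Contractile cells slide myosin along actin filaments. Smooth muscle does this with its own actins (Acta2, Actg2) and myosin heavy chain (Myh11), which the myosin light chain kinase Mylk switches on, while every cell builds stress fibres and its cell cortex from the cytoplasmic actins Actb and Actg1 and the non-muscle myosins Myh9 and Myh10. Many of these genes share a promoter element, the CArG box, which SRF binds. Myocardin (Myocd), found in cardiac and smooth muscle, and the widely made MRTF proteins, which leave unpolymerized actin and enter the nucleus when filaments form, are co-activators of SRF. Cultured fibroblasts on stiff plastic are known to take up some smooth muscle genes, Acta2 first among them.

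Markers of fibroblasts and of other cell types were read as whole lists. For scale, 73.9% of all genes with reads reached a mean of 10 normalized counts. That share leaves out genes at 0, which the lists include. Of 10 fibroblast markers, 9 reached a mean of 10 normalized counts, with a median of 2079 normalized counts per kb and a summed mean of 236923 normalized counts, and S100a4 was the most abundant per kb. The exception was the matrix proteoglycan gene Lum, at 1.33 normalized counts. The proteoglycan gene Dcn and the growth factor receptor gene Pdgfra, with 81.8 and 91.9 per kb, also lay below the median of all genes with reads, 143 per kb. Of 13 skeletal muscle markers 4 reached 10 normalized counts and 4 others, including the master regulators Myod1, Myf5 and Myf6, were at 0. Their sum was 381 normalized counts, of which the troponin gene Tnni1 held 307. Cardiac markers reached 10 normalized counts in 4 of 11 genes and summed to 1156. Their heavy chains Myh6 and Myh7 had 0.147 and 0.162 normalized counts, the worth of a single read in 1 library, and the natriuretic peptide gene Nppb was the most abundant per kb at 615 normalized counts. Cardiac troponin T (Tnnt2) had 385 and the light chain gene Myl4 114 normalized counts.

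Mural cell markers were mixed, with 6 of 8 at 10 normalized counts or more, near the 73.9% of all genes with reads. Pdgfrb had 4160, Cspg4 3649, Mcam 3622, Rgs5 694, Itga8 616 and Notch3 178 normalized counts, while the channel genes Kcnj8 and Abcc9 were at 0. The summed mean of the 8 markers was 12919 normalized counts, and Mcam had the highest level per kb. Endothelial markers reached 10 normalized counts in 3 of 7 genes and summed to 3574, of which the receptor gene Kdr made up 2958. The endothelial adhesion genes Pecam1 and Cdh5 had 4.47 and 3.54 normalized counts and Emcn was at 0. Macrophage markers reached 10 in 2 of 7 genes and summed to 306 normalized counts, mainly the lysosomal gene Cd68 at 257, with Adgre1 at 0.178 and the receptor gene Csf1r at 40.1. Epithelial markers reached 10 in 4 of 7 genes and summed to 8607 normalized counts, mainly the keratin gene Krt19 at 7400, with 1106 for Krt18, 67.1 for the cadherin gene Cdh1, 5.12 for Epcam and 1.17 for Krt5, the lowest per kb. In bulk RNA, fewer cells of a type and less RNA per cell cannot be told apart, and the part of any minor cell type in the levels below was not tested.

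The 40 genes together took up 7.31% of the summed normalized counts of all genes, each gene counted once. Actb alone took up 2.42% and ranked 1 among all genes by normalized counts. Per kb, 34 of the 40 genes lay above 143 normalized counts per kb, the median of the 18366 genes with reads and a known exon length, and 15 lay above the 99th percentile of these genes. The 6 genes below the median were Myh11, Mylk, Des, Synpo2, Actc1 and Myocd. All but Mylk are known chiefly from differentiated muscle.

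**Figure D1:**
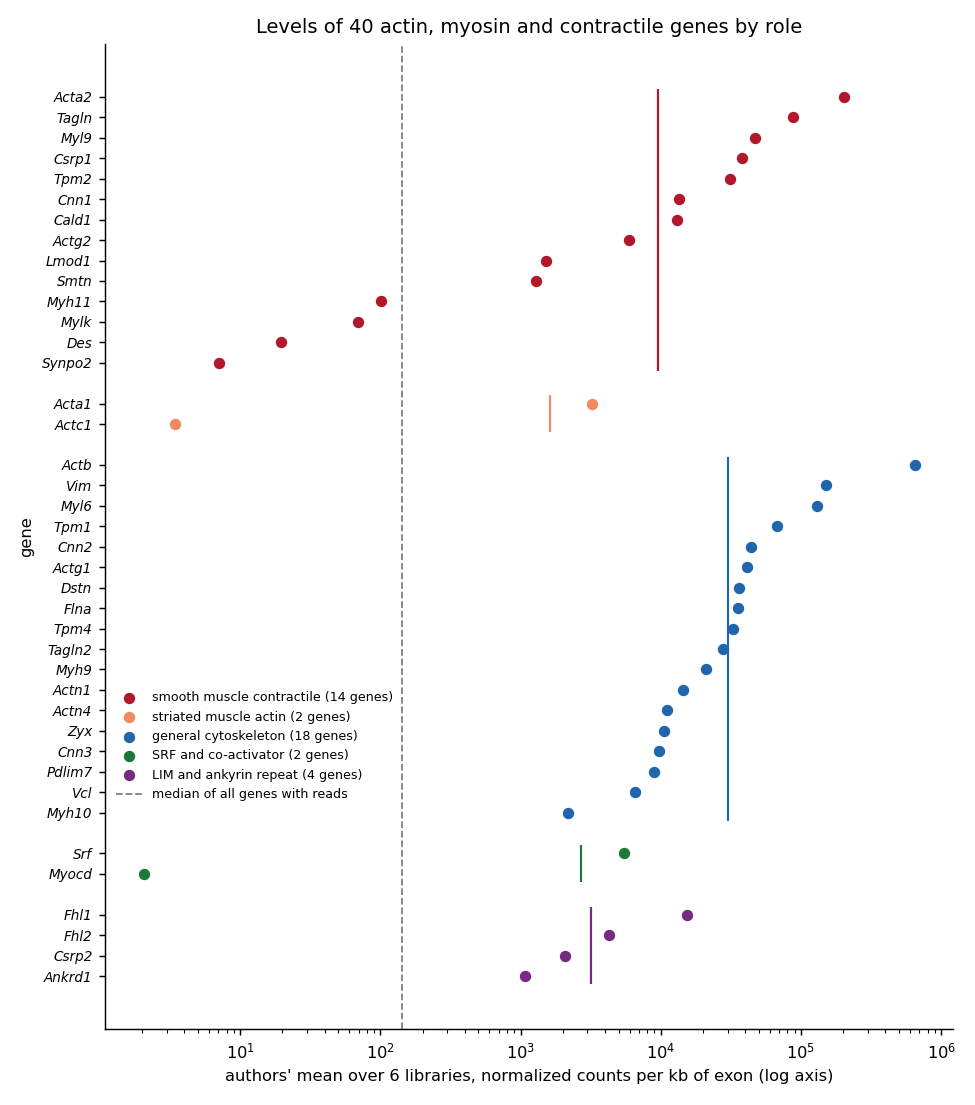
Level of each of the 40 genes as normalized counts per kb of exon on a log axis, from the mean over 6 libraries, grouped by role. Coloured vertical lines mark the median of each role and the dashed line the median of all genes with reads, 143 per kb. The smooth muscle contractile genes spread from 7.07 to 204352 per kb, the general cytoskeleton genes from 2184 to 645175.

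The 14 smooth muscle contractile genes had a median of 9539 normalized counts per kb, against 30299 for the 18 general cytoskeleton genes, a ratio of 3.18 between the medians. The lists were divided by hand, and the ratio depends on that division. With Tagln, Myl9, Tpm2 and Csrp1, which are also made outside smooth muscle, counted as general cytoskeleton genes, a division chosen after seeing the data, the medians were 1397 and 34151 per kb and their ratio was 24.4. As first divided, the lists overlapped widely. In the smooth muscle list 5 genes lay above the general cytoskeleton median, and in the general list 3 genes lay below the smooth muscle median. What set them apart was the spread, since the highest smooth muscle gene was 28914 times the lowest and the highest general gene 295 times the lowest. Of the smooth muscle genes 8 and of the general genes 17 lay above the 95th percentile of all genes per kb, and 4 and 0, in that order, lay below the median of all genes.

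At the top of the smooth muscle list stood Acta2, the actin of vascular smooth muscle and myofibroblasts (chr19:34240336-34255585), with 204352 normalized counts per kb. It ranked 9 among all genes per kb and made up 46.0% of the summed level per kb of its list. The next were Tagln, which encodes the actin-bundling protein transgelin, at 88199 per kb, and the regulatory light chain gene Myl9 at 46718 per kb. Csrp1, for a LIM protein at actin filaments, had 38187 and the beta-tropomyosin gene Tpm2 30927 per kb. These are the 5 genes that exceeded the general cytoskeleton median, and each of them is also made outside smooth muscle. The calponin gene Cnn1 at 13535 per kb and the caldesmon gene Cald1 at 13150 per kb, both for proteins that restrain myosin on the filament, followed. Actg2, the actin of gut and bladder smooth muscle, had 5929 per kb, so that Acta2 exceeded it 34.5 times. The gap was wider with coding length, at 367690 per kb for Acta2 and 7006 for Actg2. It was also wider without division by length, at 415857 and 7903 normalized counts.

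Lmod1, whose leiomodin starts new actin filaments in smooth muscle, and the smoothelin gene Smtn had 1516 and 1279 normalized counts per kb. Below them the levels dropped by more than a factor of 10. Myh11, the heavy chain that defines smooth muscle myosin (chr16:14194527-14292188), had 101 normalized counts per kb and lay above 46.3% of the genes with reads. The kinase gene Mylk had 69.8 per kb. Desmin (Des), the intermediate filament of muscle, had 19.7 and Synpo2, for an actin-binding protein of muscle Z-discs and dense bodies, 7.07 per kb. The smooth muscle list thus held some of the most abundant genes of these fibroblasts together with 4 below the median of all genes.

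The lowest values rest on few reads. A single read in 1 library adds between 0.147 and 0.183 to the mean over 6 libraries, depending on the library. By that measure the mean of Synpo2, 49.9 normalized counts, stands for about 272 to 339 reads in all, and that of Des, 59.6, for about 324 to 405. Myocd, at 10.5 normalized counts, rests on about 57 to 72 reads and Actc1, at 5.05, on about 27 to 35. How those reads were spread over the libraries is not known. Of the 40 genes 39 reached 10 normalized counts, the exception being Actc1, and of all genes with reads 73.9% reached that mean.

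**Figure D2:**
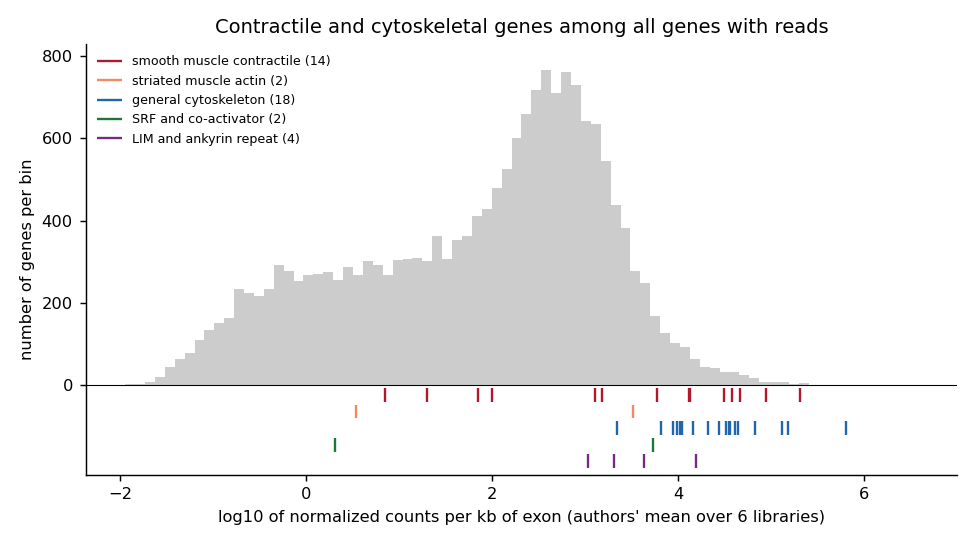
Number of genes (vertical axis) by log10 of normalized counts per kb of exon, for the 18366 genes with reads and a known exon length, with a tick below for each of the 40 genes, coloured by role. Most ticks lie in the right tail, and 6 lie left of the median of all genes.

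Among the general cytoskeleton genes, Actb (chr5:142903115-142907976) had 645175 normalized counts per kb and was exceeded per kb by only 2 genes, the short noncoding RNA genes Rpph1 and Rmrp. It made up 49.8% of the list's summed level per kb. Vimentin (Vim), the intermediate filament protein of mesenchymal cells, had 150796 per kb and the essential light chain gene Myl6, which serves smooth and non-muscle myosins, 130950. The tropomyosin gene Tpm1 followed with 67465 per kb. Cnn2, Actg1, Dstn, Flna and Tpm4, which encode a calponin, the second cytoplasmic actin, the filament-severing protein destrin, the crosslinker filamin A and a short tropomyosin, lay between 32945 and 43856 per kb. Tagln2 had 27654 and Myh9, the main non-muscle myosin heavy chain, 21021 per kb. The alpha-actinin genes Actn1 and Actn4, the focal adhesion genes Zyx, Pdlim7 and Vcl (zyxin, enigma and vinculin) and Cnn3 lay between 6498 and 14347 per kb. Myh10 was the lowest, at 2184 per kb.

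The striated muscle actins were far apart. Acta1, the actin of skeletal muscle, had 3258 normalized counts per kb and Actc1, the cardiac one, 3.43. In the LIM and ankyrin repeat list Fhl1 had 15490 per kb, Fhl2 4306, Csrp2 2060 and Ankrd1, for a stretch-responsive nuclear protein that is known as a target of YAP, 1083. SRF itself (Srf) had 5436 normalized counts per kb, 2655 times the 2.05 per kb of Myocd.

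Levels were also set against those of close relatives, and each share below is among the genes named for its family, with no other relatives in the sum. In the actin family of 6 genes, Actb made up 71.7% of the summed level per kb, Acta2 22.7% and Actg1 4.58%. Actg2, Acta1 and Actc1 made up 0.659%, 0.362% and 0.000381%. With the mean over transcripts, an alternative chosen after seeing the data, Actb had 64.3%, Acta2 20.4% and Actg1 14.4%. This shift came from the GENCODE lengths of the 2 Actg1 transcripts, 326 and 1952 bases, whose means were 80526 and 80282 normalized counts. The shorter length may not be that of the model counted. Among the myosin II heavy chain genes Myh9, Myh10 and Myh11, the non-muscle Myh9 made up 90.2% and Myh10 9.37%, with 0.432% for Myh11. Myh9 thus exceeded Myh11 by 209 times per kb, while among actins Actb exceeded Acta2 by only 3.16 times. Vim exceeded Des 7665 times per kb.

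Tagln made up 76.1% of the level per kb of the transgelin genes Tagln and Tagln2, against 23.9% for Tagln2, and Cnn1 20.2% of the calponin level, against 65.4% for Cnn2 and 14.4% for Cnn3. Of the regulatory light chain genes Myl9, Myl12a and Myl12b, Myl9 made up 58.0%, Myl12a 39.6% and Myl12b 2.40%. With coding length in place of exon length, an alternative chosen after the lengths were seen, Myl9 had 44.4% and Myl12a 52.1%, so the order of these light chains depends on the length used. The tropomyosin level per kb came to 46.2% from Tpm1, 22.6% from Tpm4, 21.2% from Tpm2 and 10.0% from Tpm3. This order depends on which transcript stands for a gene, in alternatives chosen for these shares after seeing the data. With the longest transcript of each gene Tpm1 had 19560 normalized counts per kb and 20.1% of the level, below Tpm4 with 33.9% and Tpm2 with 31.8%, and with the mean over transcripts Tpm2, at 26.2%, exceeded Tpm4, at 22.4%. Actn1 and Actn4 made up 56.5% and 43.5% of their summed level per kb. Dstn made up 33.0% of the level of filament-severing genes, against 64.4% for Cfl1 and 2.62% for Cfl2.

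**Figure D3:**
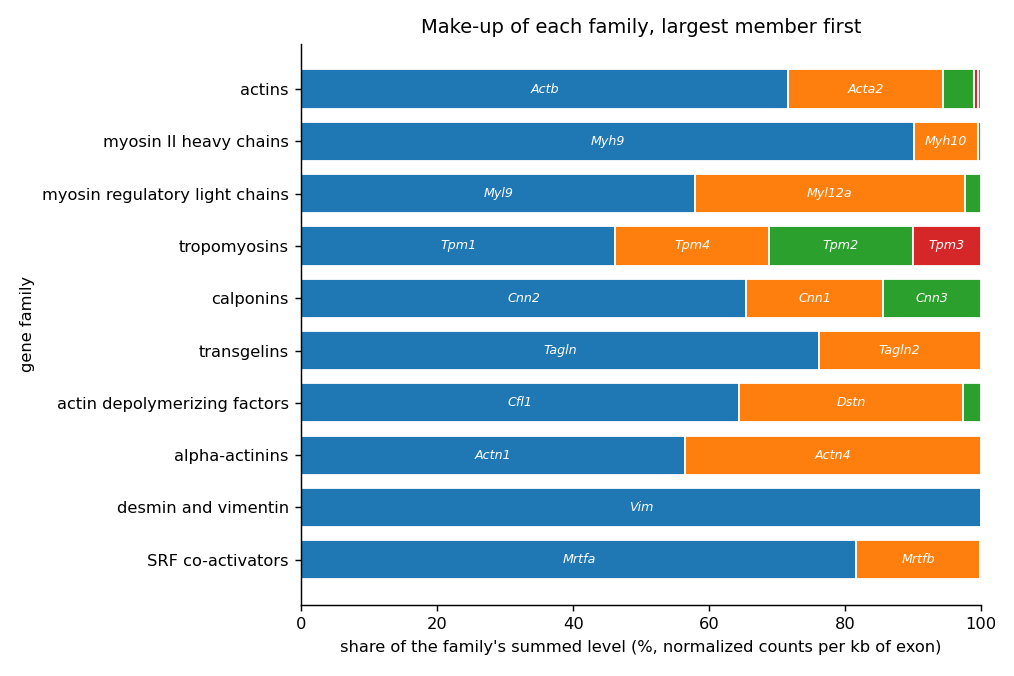
Share of each gene in the summed level of the genes compared in its family, in percent of normalized counts per kb of exon, with the largest member at the left and names given for shares above 7%. Non-muscle members lead the actins, the 3 myosin II heavy chains compared and the calponins, and Tagln exceeds Tagln2.

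Among the 3 SRF co-activator genes compared, the MRTF genes lay far above Myocd. Mrtfa had 1384 and Mrtfb 308 normalized counts per kb, together 827 times Myocd, and Mrtfa made up 81.7% of the level of the 3 genes. The list of MRTF, TEAD and YAP partners, with 11 genes that all reached 10 normalized counts, had a median of 875 per kb. Its extremes were Tead2, for a DNA-binding partner of YAP, at 4063 per kb and Mrtfb. Elk1, Elk3 and Elk4, also in this list, had 543, 1698 and 333 per kb. All 14 genes of RhoA signalling to actin reached 10 normalized counts as well, with a median of 1766 per kb. They ranged from the kinase gene Rock1 at 431 to Pfn1, whose profilin delivers actin monomers, at 91628 per kb. The 19 other actin assembly and light chain genes had a median of 7180 per kb, from Myl6b at 288 to the monomer-binding thymosin gene Tmsb4x at 63468 per kb. The medians of all 3 lists lay below the general cytoskeleton median per kb, while Pfn1, Cfl1, Tmsb4x, Tmsb10 and Myl12a exceeded it.

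CArG boxes were looked for in the promoters because SRF acts through them. A box was counted where CC, then 6 bases that are each A or T, then GG occurred in the RefSeq promoter (GRCm38.p6, from 250 bases before to 50 after the start site). The pattern reads alike on both strands. Promoters were given for 34 of the 40 genes, and Actg2, Myh11, Tagln, Actb, Myocd and Csrp2 had no entry. A box stood in the promoter of 10 of the 34 genes (29.4%), where 1.81% of 27025 genes had one. Since SRF control was a reason to list these genes, the higher share follows from their choice and is no finding about them. A match is a description of letters, not a shown binding site.

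By role, 1 of 11 smooth muscle contractile genes held a box (Myl9), 4 of 17 general cytoskeleton genes (Actg1, Cnn2, Myl6 and Vcl), both striated muscle actins, Srf itself, and 2 of 3 LIM and ankyrin repeat genes (Fhl1 and Fhl2). Actg2, Myh11 and Tagln, the 3 smooth muscle genes without a promoter entry, are not in these counts. Boxes outside the window or with a mismatch are not in them either. All 12 exact boxes lay before the start site, and 9 of them between 100 bases before it and the start. Over all promoters 92.1% of boxes lay before the start site and 39.9% in those 100 bases. In the other lists the box occurred in Filip1l among 17 actin assembly and light chain genes and in Myl7 among 11 cardiac markers. None of 7 partner, 12 RhoA pathway or 5 fibroblast marker genes with a promoter entry held one. Neither did any of 9 skeletal muscle, 7 mural, 5 endothelial, 5 macrophage or 5 epithelial markers with an entry.

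Srf is one of the genes with a pair of boxes in 1 promoter, which 6 of 32851 promoters (0.0183%) had. The 150 bases before its start site, on the minus strand at chr17:46556163-46556312, are shown with both boxes in capitals, which start 82 and 62 bases before the start site.
Srf: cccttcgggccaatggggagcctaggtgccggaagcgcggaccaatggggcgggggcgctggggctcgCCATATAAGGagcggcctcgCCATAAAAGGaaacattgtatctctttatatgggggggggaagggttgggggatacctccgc

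The boxes of the other genes are shown, in capitals, with up to 30 bases on each side and only bases before the start site, each 5′ to 3′ on the strand of its gene. The general cytoskeleton genes come first. They lie at chr11:120348546-120348615 (minus strand), chr10:79988514-79988583 (plus), chr10:128493020-128493089 (minus) and chr14:20929148-20929210 (plus). The distance from the start site differed among them, with 90 bases for Actg1, 56 for Cnn2, 50 for Myl6 and 227 for Vcl. The Myl6 box stood in 1 of its 2 promoters, that of the internal start, and the upstream promoter held none.
Actg1: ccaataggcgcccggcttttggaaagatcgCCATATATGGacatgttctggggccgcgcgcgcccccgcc
Cnn2: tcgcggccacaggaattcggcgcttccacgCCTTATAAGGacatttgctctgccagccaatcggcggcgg
Myl6: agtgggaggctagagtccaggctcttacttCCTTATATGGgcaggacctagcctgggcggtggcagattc
Vcl: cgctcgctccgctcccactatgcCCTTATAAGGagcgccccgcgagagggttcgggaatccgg

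The muscle genes with a box are Myl9 at chr2:156775273-156775342 (plus strand), Acta1 at chr8:123894809-123894878 (minus) and Actc1 at chr2:114052883-114052952 (minus). Their boxes started 161, 73 and 47 bases before the start site. The levels of Acta1 and Actc1, which both hold a box, were 3258 and 3.43 normalized counts per kb.
Myl9: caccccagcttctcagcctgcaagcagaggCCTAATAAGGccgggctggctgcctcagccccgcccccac
Acta1: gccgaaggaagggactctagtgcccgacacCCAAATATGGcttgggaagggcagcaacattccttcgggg
Actc1: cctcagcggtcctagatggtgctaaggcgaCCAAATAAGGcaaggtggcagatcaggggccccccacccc

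Fhl1 had a box at chrX:56779551-56779620 (plus strand) in 1 of its 2 promoters. Fhl2 had 1 in each of its 2 promoters, at chr1:43196818-43196887 for the upstream and at chr1:43163962-43164022 for the internal start, both on the minus strand. They started 102, 96 and 31 bases before the start site in that order.
Fhl1: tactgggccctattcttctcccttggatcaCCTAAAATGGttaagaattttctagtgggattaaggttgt
Fhl2 upstream: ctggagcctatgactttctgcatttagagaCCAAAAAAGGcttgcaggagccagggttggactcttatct
Fhl2 internal: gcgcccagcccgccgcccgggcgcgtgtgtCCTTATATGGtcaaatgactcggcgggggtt

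Acta2, the most abundant smooth muscle gene, had no exact box in the window. With 1 mismatch allowed among the 6 central bases it held 2, starting 84 and 34 bases before the start site, at chr19:34255418-34255487 and chr19:34255374-34255437 on the minus strand. This looser pattern occurred in 12 of the 34 genes, adding Acta2 and Dstn, and in 11.3% of all genes with a promoter.
Acta2 first box: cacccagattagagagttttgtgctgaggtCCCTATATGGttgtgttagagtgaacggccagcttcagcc
Acta2 second box: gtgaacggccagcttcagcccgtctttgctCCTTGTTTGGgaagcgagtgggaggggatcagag

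**Figure D4:**
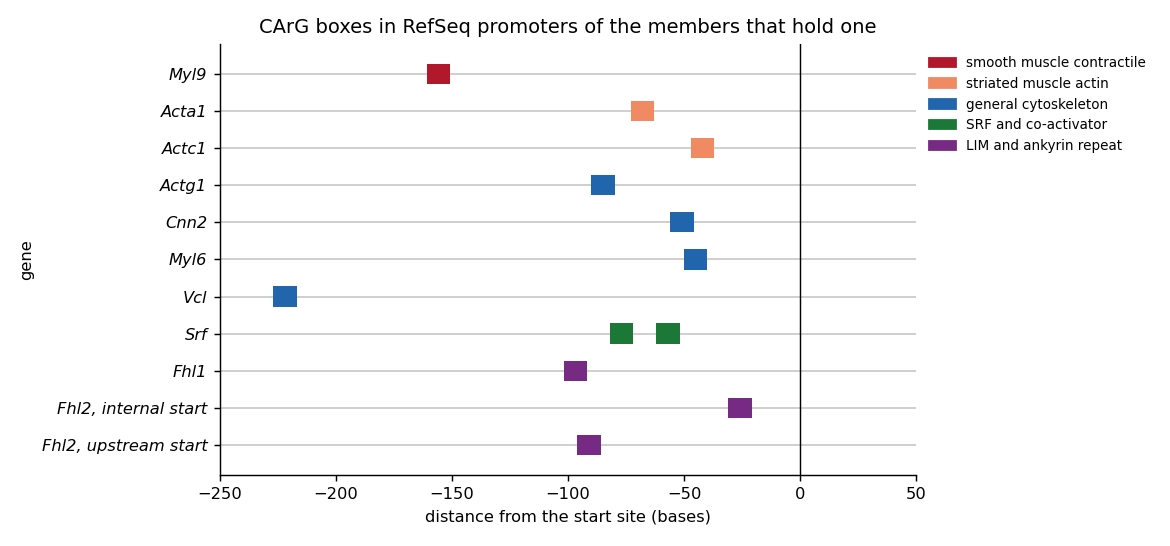
Position of each exact CArG box relative to the start site, in bases, in the RefSeq promoters of the 10 genes that hold one, coloured by role. Fhl2 has a row for each of its 2 promoters. Of the 12 boxes, 9 lie within 100 bases before the start site.

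The ranges of levels of genes with and without a box overlapped. The 10 genes with a box had a median of 10994 normalized counts per kb, from Actc1 at 3.43 to Myl6 at 130950, and the 24 without one a median of 13343, from Synpo2 at 7.07 to Acta2 at 204352. The 6 genes with no promoter entry, Actb and Myocd among them, are in neither group. Other promoter elements were nearer to their general share. The letters CATTCC, read on both strands and bound by TEAD factors, occurred in 13 of the 34 genes (38.2%) and in 16.6% of all genes. TATAAA, likewise on both strands, occurred in 9 of 34 (26.5%) and in 15.7% of all genes. Acta1 held all 3 elements.

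Of the 40 genes 17 have more than 1 RefSeq transcript in the table, and in 10 of these the lowest transcript was within 1% of the highest. Transcripts that share exons thus do not split their reads in this table. In 4 genes, Csrp1, Tpm1, Pdlim7 and Fhl2, the lowest transcript had under 90% of the highest, and a difference between transcripts can then come only from exons that they do not share. Tpm1 (chr9:67022590-67049672), whose tropomyosins differ between muscle and other cells through alternative exons, had 10 transcripts. The 5 that end in the farthest last exon had between 109614 and 128049 normalized counts, and the other 5, whose last exon starts earlier in the gene, between 56528 and 75739. Exchanging the farthest for the nearest last exons lowered the mean by 52310 normalized counts among transcripts with the upstream start and by 52307 among those with the internal start. Exchanging the upstream first exons for the internal one lowered it by 18432. These differences are in counts that are not divided by length. The farthest last exon has 827 to 852 bases and the nearest 120 or 276, so they are no measure of exon use. The second exon nearer to exon 3 exceeded the one nearer to exon 1 by 2474 normalized counts, among transcripts that otherwise share all but the length of the first exon.

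**Figure D5:**
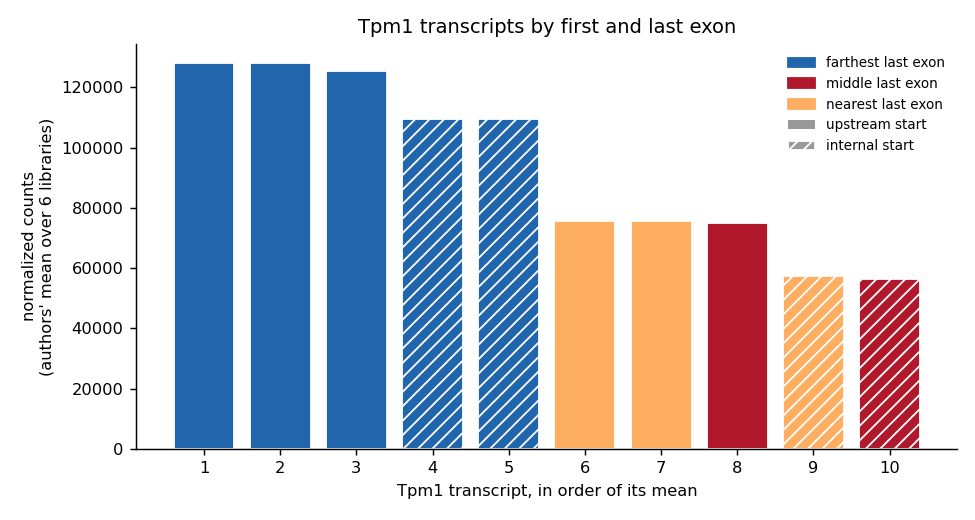
Normalized counts (mean over 6 libraries) of the 10 Tpm1 transcripts in falling order, coloured by where the last exon starts and hatched where the transcript starts at the internal first exon. Transcripts with the farthest last exon have at least 109614 normalized counts and all others at most 75739.

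In Pdlim7 the transcript with the downstream exons had 15165 normalized counts and one that ends before them 7976. The Cald1 transcript from the upstream start had 54270 normalized counts, 2503 more than that from the internal start. Exon lengths of the pair are 4127 and 4041 bases. For Fhl2 the transcript from the internal start had 6731 normalized counts and that from the upstream start 5957. Their exon lengths are 1563 and 1421 bases. Both promoters of the gene hold a CArG box. The noncoding transcript of Csrp1 had 82.3% of the normalized counts of the coding one. In all these genes the counts are not divided by length and include the reads of shared exons. They are thus no measure of the use of a start, an end or a transcript.

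Copies in other genes were looked for only where they are unchanged over 150 bases, and copies with mismatches were not examined. For 37 of the 40 genes no stretch of 150 bases, the length of a read, occurred unchanged in a transcript of another gene, and these include Actb, Acta2, Acta1, Actc1 and Actg2. The level of Actg1 is uncertain, since 43.5% of its 150-base stretches also occur in other genes, the first of them the processed pseudogene Gm12715. The shares were 12.3% for Myl6 and 5.31% for Tpm4, likewise with pseudogenes. The libraries came from a stranded kit, but the counting is described as run at default settings, at which featureCounts ignores strand. Those settings also leave out reads that several features share, yet transcripts with common exons keep such reads in this table, so the defaults were not followed throughout, and whether reads from exons on the opposite strand were counted with a gene is not known. Such exons cover 61.8% of the exon bases of Tagln (Pcsk7 and Gm48529) and 39.7% of those of Vcl (Ap3m1), and less than 20% in 8 other genes. Pcsk7 had 468 normalized counts per kb against 88199 for Tagln, and Ap3m1 202 against 6498 for Vcl.

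The 40 genes are spread over 19 chromosomes. A single pair lies within 1 Mb, the smooth muscle genes Lmod1 and Csrp1 on chromosome 1, which are 352 kb apart and had 1516 and 38187 normalized counts per kb.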

How the data were processed

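RNA-Seq of MEFs from 3 WT and 3 Anp32e-/- cultures was examined. Alignment by the authors was with RNA-STAR (mm10), counting per RefSeq transcript with featureCounts of Subread, and scaling with DESeq2 (annotation release not given in the sources used here). The kit was a stranded one, and counting and scaling are described as run at default settings, at which featureCounts ignores strand and leaves out reads shared by several features. Since transcripts with common exons keep such reads in the table, the defaults were not followed throughout. The deposited signal used here is the mean of normalized counts over all 6 libraries. The 5 other columns hold the authors' comparison of Anp32e-/- with WT (log2 fold change, its standard error, statistic, p-value and adjusted p-value) and were not used. With no values per library, the planned comparison of genotypes could not be made. Size factors derived from the values of single reads lay between 0.909 and 1.13. Which library each belongs to, and the number of reads per library, are unknown.

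Of 42361 transcripts, 42203 matched a gene of the RefSeq annotation of GRCm38.p6. Means were divided by the exon length of the longest GENCODE M21 counterpart among transcripts within 1% of the highest mean, a rule chosen after lengths were seen. Members and lists were chosen with earlier results of these data known. All 40 members are described, and of each other list the genes with the highest and lowest level per kb. Markers named beside these, transcript contrasts, families, and overlapping genes were chosen after their values were seen. Promoters are from RefSeq. Python 3.11.15, numpy 2.4.6, pandas 2.3.3 and matplotlib 3.10.9 were used, and the calculations were tested on simulated data.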

Additional observations from a re-analysis of the deposited data

How the results depend on the processing

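No paired analysis was possible because the table holds 1 mean over all libraries and no values per library. For the same reason the count model of Anp32e-/- against WT and its alternatives (other size factors, no filter on low counts, the replicate block, and leaving out each replicate) were not run. A value was taken as moved where it changed by 1.5 times or more. The ratio of the general cytoskeleton median to the smooth muscle median was 3.18, and it lay between 2.55 and 4.66 under 5 alternatives: the longest transcript, the mean over transcripts, no division by length, coding length, and leaving out Tpm1 and Csrp1. A minimum of 10 normalized counts could not change it, since no gene of either list lies below. The last 2 of the 5 were chosen after seeing the data, as was a further one, Tagln, Myl9, Tpm2 and Csrp1 counted as general cytoskeleton genes, which raised the ratio to 24.4 and lowered the smooth muscle median to 1397 normalized counts per kb, since it takes 4 of the 5 highest genes out of that list. With coding length the medians themselves rose to 20441 normalized counts per kb for smooth muscle and 54424 for general cytoskeleton genes, by construction, since coding length is shorter. Without Csrp1 the smooth muscle median was 5929 per kb. With a minimum of 1 or 50 normalized counts, 40 and 37 genes passed in place of 39. The longest transcript moved the level of 2 of 40 genes (Tpm1 and Pdlim7) and the mean over transcripts that of 1 (Actg1), while coding length moved 27 levels, all upward. The lengths behind the longest Tpm1 transcript and behind the Actg1 transcript of 326 bases may not be those of the models counted. Without division by length, the rank among the 40 genes moved for 4 (Myl9, Flna, Myh9 and Myl6). A CArG box was counted in 12 of 34 genes with 1 mismatch and in 10 with only bases before the start site, as in the whole window. Among genes with at least 10 normalized counts, the percentile moved for the 6 lowest genes. Counting errors of genes on few reads, and the spread between cultures, cannot be given.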

Other observations

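For 1 Tpm1 transcript the mean and the GENCODE counterpart went apart. Its counterpart ends in an exon of 1973 bases that spans both the middle and the farthest 3' end, yet its mean, 56528 normalized counts, lay with transcripts that lack the farthest exon and 18432 below the transcript with the middle 3' end and the upstream start. That is the same gap as between both starts with the other ends. A difference between the RefSeq model counted and the GENCODE one was not tested.

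Across all genes, 3573 of 7473 genes with several transcripts with reads had a lowest transcript within 1% of the highest.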
